A study of Gasterosteus aculeatus with 62 samples.

Results

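A male threespined stickleback (Gasterosteus aculeatus) that courts beside a predator weighs mating against survival. Earlier results of these same data had shown a higher telencephalon level of ENSGACG00000010476 in males that met a predator cue. The genes described here were gathered around that gene. They are 60 genes whose levels rose and fell from male to male together with this reference gene within treatment groups, chosen from 8178 candidates among 22295 gene models. A candidate had an Ensembl identifier, a mean of 5 to 300 CPM (counts scaled to a common library total) over 60 libraries, region medians within 4-fold, and a Pearson correlation of 0.3 to 0.9 between the regions. That correlation was taken over 30 males, on the residuals of log2(CPM + 0.5) from the treatment group means. Members are the 60 candidates with the highest correlation of telencephalon residuals to those of the reference gene, which passed the same filters and is not counted among them. Differences between treatments were not used to rank the members, but the reference gene had been picked with its cue effect known. The cue estimates of the members are therefore not independent of that pick.

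The samples were the telencephalon and the diencephalon of 31 males that had built nests, dissected 1 hour after a trial. Control males faced empty cages (7 males), courtship males a live gravid female in a cage (8), predator males a caged model trout with odor cues (8), and tradeoff males both a caged female and the model predator (8). The labels do not repeat the odor cues for the tradeoff, so the predator cue may not have been identical in both treatments. No strain or age is given in the sources used here, and each library came from 1 region of 1 male. Each library held 26.2 M to 51.1 M counts in gene models. Predator male 42 was left out by the rule, which leaves 7 predator males, and its telencephalon library is described at the end.

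Genes that vary together between individuals are often grouped as a co-expression module. Such a group can arise where genes answer to the same regulators, where they are used by the same cell types, or where samples differ in how much of each tissue they hold. The telencephalon of bony fishes holds the pallium and the subpallium, areas known for learning, fear and social decisions, and the diencephalon holds the thalamus and the hypothalamus. In bulk tissue, fewer cells of a type and less RNA per cell cannot be told apart. None of the 22295 identifiers matched the RefSeq table used here (assembly fGasAcu3.hap1.1), so the members are given by identifier, without name, role, position or sequence, and markers of cell types could not be read.

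The correlations with the reference gene were led by a few genes and then fell off slowly. ENSGACG00000016157 had r = 0.888 over 30 males, ENSGACG00000007218 had 0.758, ENSGACG00000017076 had 0.737 and ENSGACG00000018137 had 0.732. ENSGACG00000005902 and ENSGACG00000014266 both had 0.686, ENSGACG00000003192 had 0.618 and ENSGACG00000005843 had 0.612. These 8 were the members at or above 0.6, and the other 52 lay between there and the limit. The last member, ENSGACG00000016079, had r = 0.477, and the first gene outside, ENSGACG00000005252, had 0.475. The limit thus fell in a continuous slope. On the opposite side, 28 candidates had a correlation at or below the negative of the limit, the lowest at -0.623, and the median candidate had 0.0254. All these values were what the choice used, and they carry no test.

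**Figure D1:**
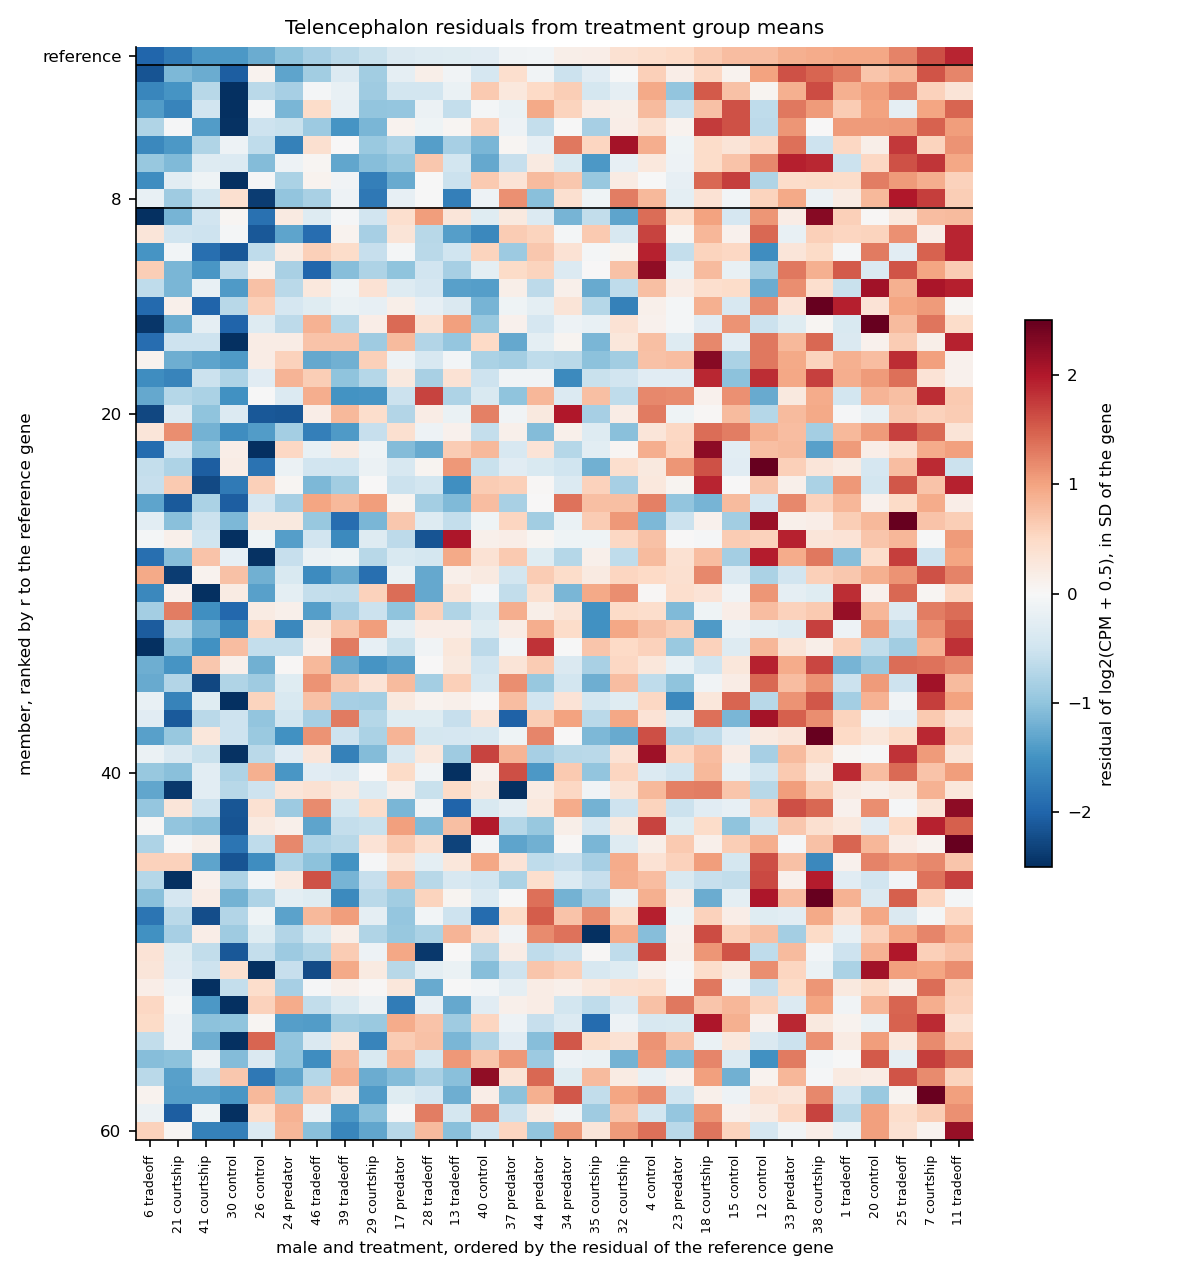
Residuals of log2(CPM + 0.5) from treatment group means in the telencephalon, in SD of each gene, for the reference gene (top row) and the 60 members in order of r (rows) in 30 males ordered by the reference gene (columns). The first 8 members change from blue to red almost as the reference gene does, while rows further down follow it with many single exceptions, and control male 30 is low in many of them.

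Residuals of the reference gene ran from -0.54 in tradeoff male 6 to 0.52 in tradeoff male 11, so males at both ends had met the same treatment. The mean residual of the 60 members was -0.14 in male 6 and 0.15 in male 11. Courtship males 21 and 7 were similarly placed, with -0.48 and 0.44 for the reference gene and -0.12 and 0.15 for the members. The lowest mean of the members, -0.21, was that of control male 30, in which the reference gene had -0.39. Because residuals were taken from the treatment group means, every treatment holds both low and high males by construction.

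The members varied with the reference gene on both sides of the predator cue. Among the 15 males without the cue, the r of the first 8 members ranged from 0.570 to 0.869, and among the 15 males with it from 0.560 to 0.908. For all 60 members the median was 0.574 without the cue and 0.512 with it. Every member had a positive r in both sets of males. These are parts of the values that chose the members, so a positive r in both sets largely follows from the choice. The same values were not taken for the candidates, and those of the members are given as a description.

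Pairs of members were correlated more loosely than members and the reference gene, which the choice of members by that gene brings with it. The median correlation between 2 members was 0.331 in the telencephalon, against 0.0170 between 2 candidates. In the diencephalon of the same males it was 0.141, against 0.0116 between candidates. These values are a description and carry no test.

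The diencephalon values of the reference gene and the members gave a second view of the same males. There, the members' r to the reference gene ranged from -0.223 for ENSGACG00000006671 to 0.748 for ENSGACG00000017076, with a median of 0.271 against 0.0267 over all candidates. It was above 0 for 51 of 60 members, against 55.7% of candidates. It reached 0.5 for 7 members and for 39 of 8178 candidates. ENSGACG00000016157 had 0.650 and ENSGACG00000005902 had 0.557, whereas ENSGACG00000007218, with the second highest r in the telencephalon, had 0.226. Each member had been required to correlate between the regions, so the diencephalon values are not independent of the choice.

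**Figure D2:**
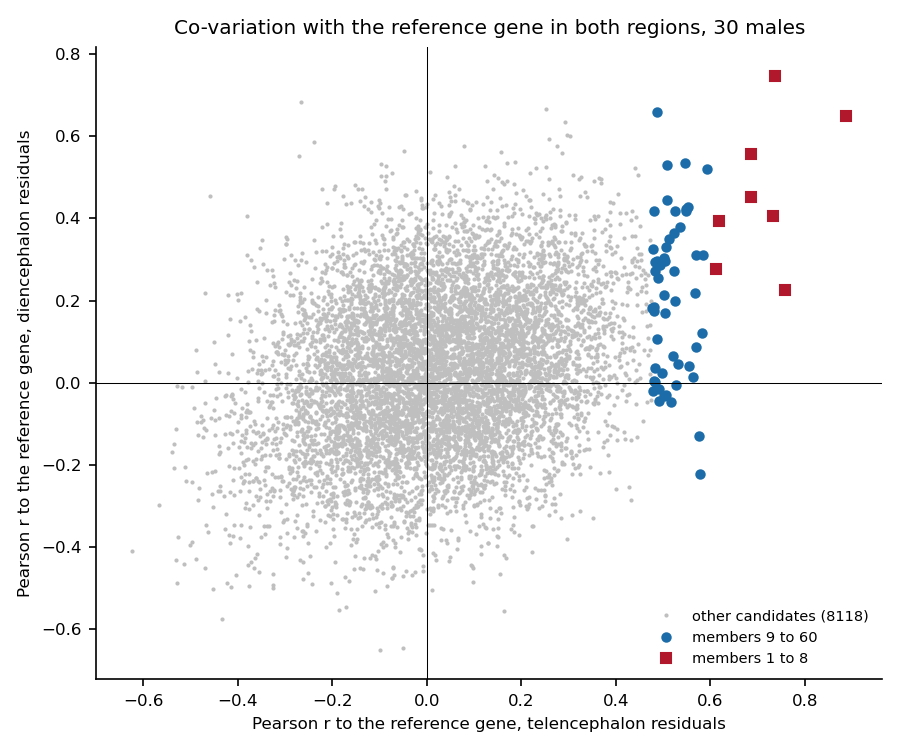
Pearson r of each candidate's residuals to those of the reference gene in the telencephalon (horizontal) and the diencephalon (vertical), over 30 males. The 8 leading members (red squares) are all above 0 in the diencephalon, from 0.226 to 0.748, while members 9 to 60 (blue) extend from -0.223 upward and the other 8118 candidates (grey) centre near 0.

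Mean levels of the members ran from 5.89 CPM for ENSGACG00000002993 to 280.3 CPM for ENSGACG00000003192, with a median of 43.0 against 31.4 over the candidates. The median level was higher in the telencephalon for 47 members and lower for 13. The number of candidates higher in the telencephalon was not counted. The ratio of telencephalon to diencephalon medians was 3.86 for ENSGACG00000006329, the highest, and 0.652 for ENSGACG00000017057, the lowest. Its median was 1.199, against 0.976 over the candidates, and the reference gene had 2.43. Males differed by a residual SD of 0.14 on the log2 scale at the median member, near the 0.15 of the candidates, with the largest, 0.43, in ENSGACG00000005902. The region ratio was bounded by the choice at 4-fold, so these levels are a description.

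The effect of the predator cue was the mean of predator and tradeoff males minus the mean of control and courtship males, fitted across all genes. It asked whether genes that follow the reference gene from male to male also follow it from treatment to treatment. In the telencephalon, 2 of 60 members rose past an adjusted p of 0.05 and none fell (edgeR quasi-likelihood test, Benjamini-Hochberg adjustment over 18687 genes). The percentage of all genes tested that rose past this threshold was 0.0375%, which is 7 genes. Another 8 members had an unadjusted p under 0.05, making 10 in all, 9 estimated higher and 1 lower. Over all genes tested the percentages were 3.57% in either direction, 1.66% higher and 1.91% lower. The median log2 fold change of the members was 0.02, against -0.002 over all genes, and 50 of 60 lay within 0.1 of 0. The standard errors of these 50 ran from 0.023 to 0.109, so some of the small estimates were uncertain by as much as that range. The percentage of all genes within 0.1 of 0 was not counted. The median standard error was 0.051 for the members and 0.072 for all genes. Estimates above 0.2 were found in 8 members, against 5.73% of all genes.

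The 2 members that rose were ENSGACG00000016157 and ENSGACG00000017076, the first and the third by correlation. ENSGACG00000016157 had, as lowest, median and highest CPM, 99.2, 149.6 and 178 in control telencephalon and 125, 154 and 214 in courtship males. With the cue it had 170.0, 215 and 297 in predator males and 148, 224 and 285 in tradeoff males. The groups overlapped, and 9 of the 15 males with the cue lay above the highest male without it. Its log2 fold change was 0.54 (SE 0.10, edgeR adjusted p = 0.0242). Without control males 30 and 12, whose telencephalon libraries are described further on, it was 0.52 with an edgeR adjusted p of 0.0652, past the threshold no longer.

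ENSGACG00000017076 is a gene of lower level, with 7.55, 13.7 and 19.4 CPM in control telencephalon and 11.5, 17.1 and 20.8 in courtship males. Predator males had 19.8, 24.4 and 33.6 and tradeoff males 18.7, 24.4 and 34.5. All 15 males with the cue lay above the median of those without it and 12 lay above the highest. The log2 fold change was 0.75 (SE 0.12, edgeR adjusted p = 0.00489), and without control males 30 and 12 it was 0.66 (edgeR adjusted p = 0.00920).

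The reference gene itself had 26.8, 38.5 and 42.6 CPM in control telencephalon and 29.8, 44.1 and 57.1 in courtship males. Predator males had 58.997, 70.5 and 85.0 and tradeoff males 48.4, 66.7 and 102. The medians of both groups with the cue exceeded every male without it. Its log2 fold change of 0.89 (SE 0.10, edgeR adjusted p = 2.43e-05) was larger than that of any member. The reference gene had been picked with this effect in these same data known, so its p-value is not an independent test. Members share with the reference gene the chance differences between males within groups, so their estimates are independent neither of it nor of each other.

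**Figure D3:**
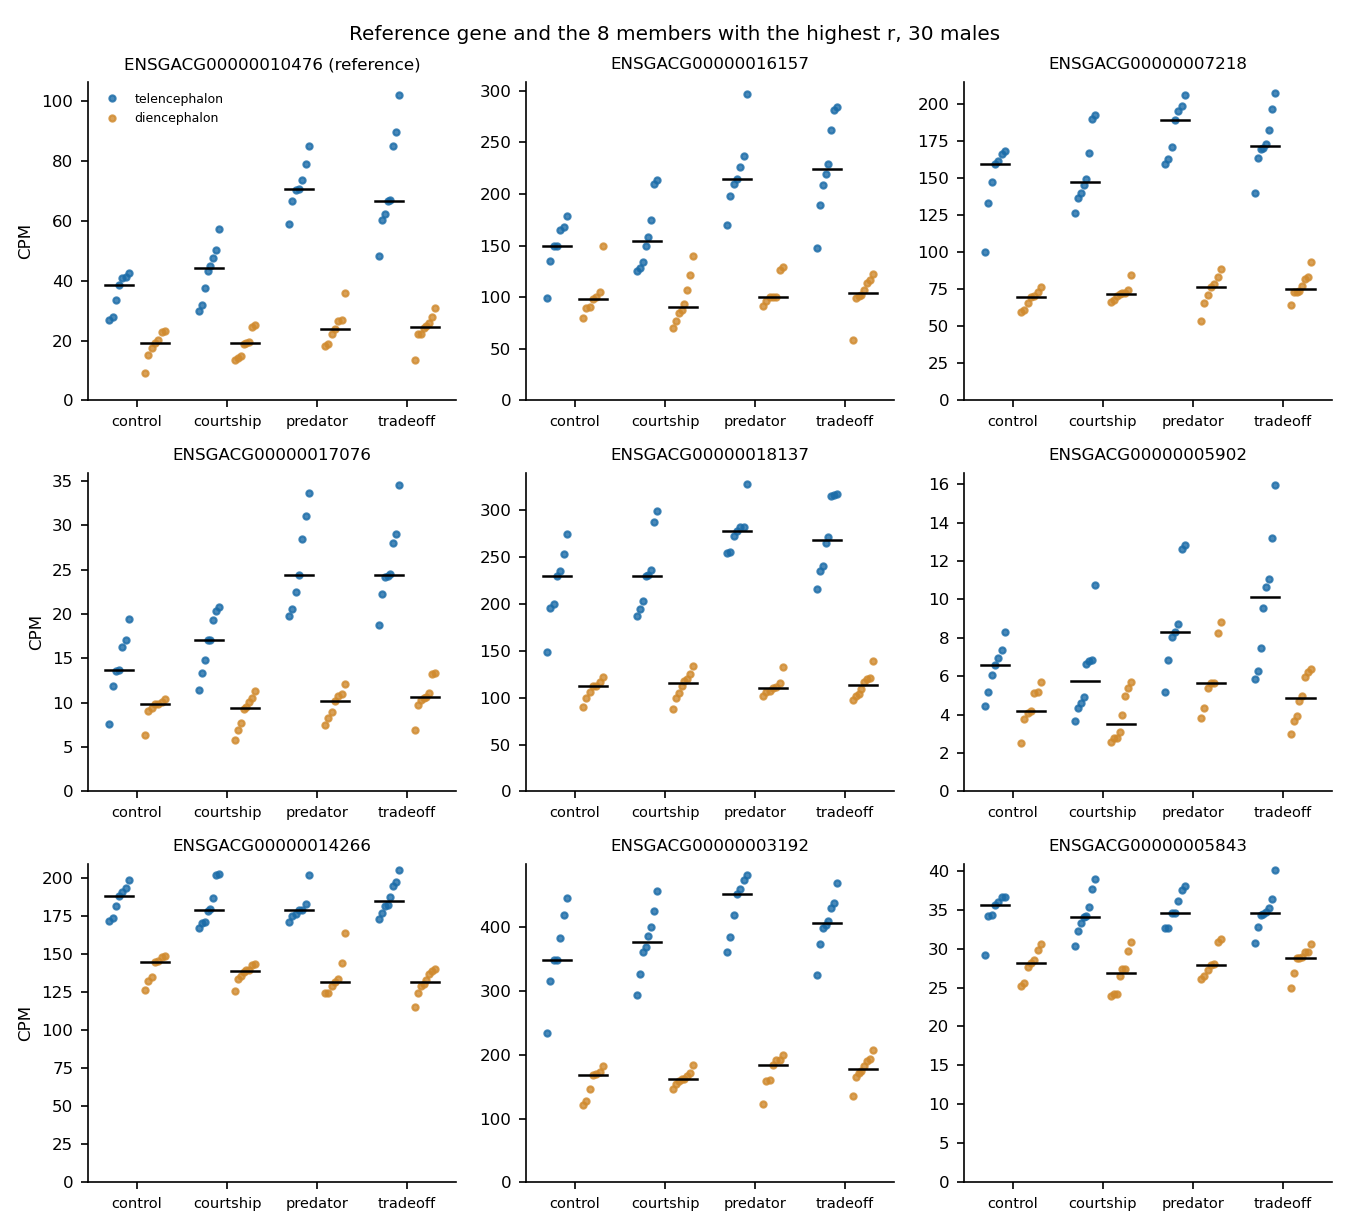
Levels in CPM of the reference gene and the 8 members with the highest r, by treatment, in the telencephalon (blue) and the diencephalon (orange) of 30 males, with 1 point per library and bars at the medians. In the telencephalon of ENSGACG00000010476, ENSGACG00000016157 and ENSGACG00000017076 the predator and tradeoff males sit mostly above control and courtship males, whereas ENSGACG00000014266 and ENSGACG00000005843 are level across treatments.

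Of the other 6 leading members, 4 had an unadjusted p under 0.05 for the cue in the telencephalon and did not pass the adjusted threshold. ENSGACG00000005902 had group medians of 6.61 CPM in control, 5.76 in courtship, 8.33 in predator and 10.1 in tradeoff males, with ranges that overlapped widely (3.68 to 10.7 without the cue and 5.16 to 15.9 with it). Its log2 fold change of 0.61 (SE 0.16) came with an edgeR adjusted p of 0.615. ENSGACG00000007218 had medians of 159.7, 147, 189 and 172 CPM in the same order and a log2 fold change of 0.25 (SE 0.07, edgeR adjusted p = 0.946). The medians of both genes were higher with the cue, and neither gene passed the threshold. Of the 15 males with the cue, 12 lay above the median of those without it for ENSGACG00000005902 and 14 for ENSGACG00000007218. ENSGACG00000018137 had medians of 229.6, 230.2, 278 and 268 CPM and a log2 fold change of 0.29 (SE 0.08, edgeR adjusted p = 0.679). ENSGACG00000003192, the most abundant member, had medians of 349, 377, 452 and 406 CPM and a log2 fold change of 0.20 (SE 0.08, edgeR adjusted p = 1.00).

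Both remaining leading members were nearly level. ENSGACG00000014266 correlated with the reference gene as closely as ENSGACG00000005902 did, but its medians were 188 CPM in control, 179 in courtship, 179 in predator and 185 in tradeoff males. Its log2 fold change was 0.01 (SE 0.03) and its residual SD 0.09, so both its spread between males and its cue estimate were small. ENSGACG00000005843 had medians of 35.6, 34.1, 34.6 and 34.6 CPM and a log2 fold change of 0.03 (SE 0.04). A high correlation with the reference gene thus occurred with cue estimates from near 0 to 0.75.

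Further down the order, 4 members had an unadjusted p under 0.05. ENSGACG00000000325, ENSGACG00000012584 and ENSGACG00000015211, named after their values were seen, had log2 fold changes of 0.56, 0.19 and 0.40 (edgeR adjusted p = 0.153, 0.615 and 1.00). ENSGACG00000007648 was the member estimated lower with the smallest p, at -0.12 (SE 0.05, edgeR adjusted p = 1.00). Its group medians were 37.8 CPM in control, 38.9 in courtship, 34.4 in predator and 35.8 in tradeoff males, and 1 of the 15 males with the cue lay above the median of those without it. ENSGACG00000010289 followed, at -0.09 (SE 0.05). Over the 52 members under r = 0.6 the median log2 fold change was 0.01, with 31 estimated higher. Over the 8 above it the median was 0.27 and all 8 were estimated higher. Of all genes tested, 48.8% were estimated higher. Across the 60 members the Spearman correlation of r with the cue estimate was 0.236. It was 0.490 between the residual SD and the size of the estimate. Members are not independent of each other, and both values are descriptions.

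**Figure D4:**
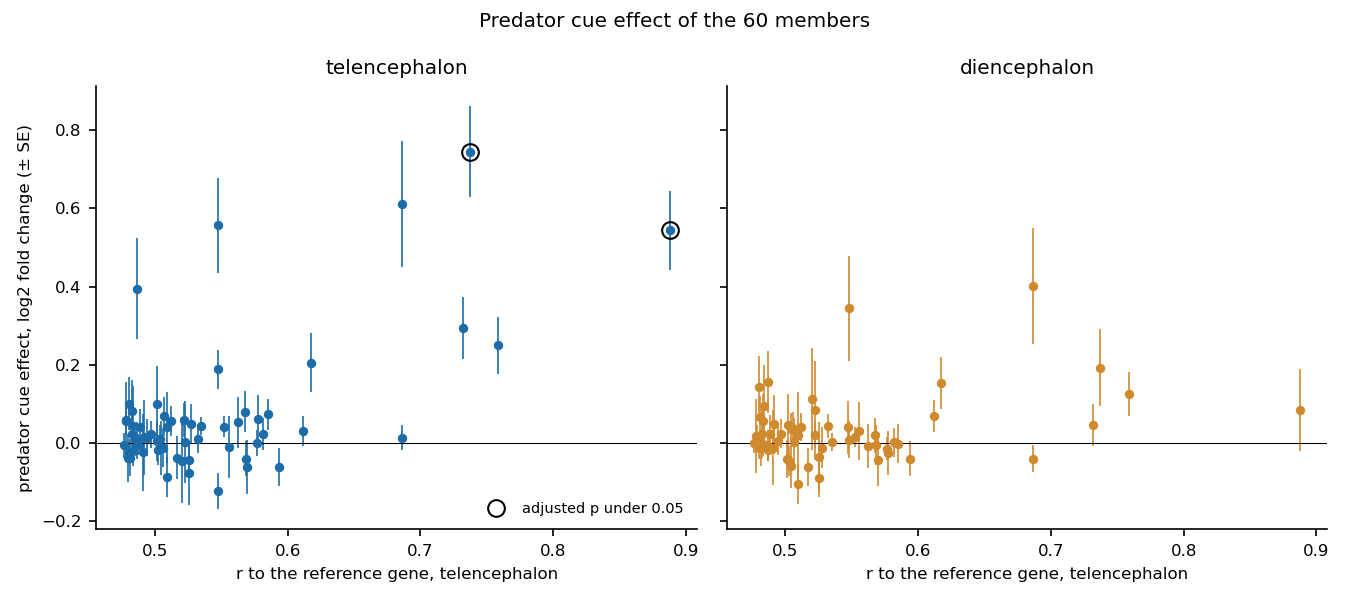
Predator cue effect (log2 fold change, bars are SE) of each of the 60 members against its telencephalon r to the reference gene, in the telencephalon (left) and the diencephalon (right), from 30 males. Circled are ENSGACG00000016157 (0.54) and ENSGACG00000017076 (0.75), which passed an adjusted p of 0.05, and most other members lie near 0 in both regions.

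Of the 7 genes past the threshold for the cue in the telencephalon, 1 was the reference gene and 2 were members. The other 4, named here after their values were seen, were no candidates, so the filters and not the correlation kept them out: their r to the reference gene was 0.616 to 0.689. ENSGACG00000010788 and ENSGACG00000000451 had telencephalon medians 5.73 and 4.33 times those of the diencephalon. ENSGACG00000019095 correlated between the regions at 0.242, and the last of the 4 was a MAKER gene model without an Ensembl identifier. The 60 members are therefore not the full set of genes that moved with the reference gene under the cue.

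In the diencephalon no member and no gene of 18918 passed an adjusted p of 0.05 for the cue (edgeR quasi-likelihood test, 0% called). At an unadjusted p under 0.05 there were 4 members estimated higher and 1 lower, against 2.24% and 1.60% of all genes, or 3.83% in either direction. By DESeq2 and voom there were also 0 members past the adjusted threshold. Each gave 5 at an unadjusted p under 0.05, against 4.05% and 4.66% of all genes. The reference gene had diencephalon medians of 19.3 CPM in control, 19.1 in courtship, 23.8 in predator and 24.4 in tradeoff males, with ranges that overlapped in all 4 groups. Its log2 fold change was 0.41 (SE 0.13, edgeR unadjusted p = 0.00348, edgeR adjusted p = 1.00), and it was not called. Of the 15 males with the cue, 12 lay above the median of those without it and 6 above the highest. ENSGACG00000016157 had 97.8, 90.5, 100.2 and 104 CPM and a log2 fold change of 0.08 (SE 0.10). ENSGACG00000017076 had 9.86, 9.42, 10.2 and 10.6 CPM and a log2 fold change of 0.19 (SE 0.10). Only ENSGACG00000005902, at 0.40 (SE 0.15), and ENSGACG00000000325, at 0.34 (SE 0.13), had diencephalon estimates above 0.2 among the members.

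The difference of the cue effect between the regions was tested in a fit of both regions. That fit took no account of the pairing of both libraries of a male, which the replicate block below does. No member passed an adjusted p of 0.05 by edgeR, DESeq2 or voom, and 0% of 19297 genes did by edgeR. At an unadjusted p under 0.05 there were 3 members, all with the higher effect in the telencephalon, against 0.472% of all genes in that direction and 0.783% in the other, 1.25% in all. They were ENSGACG00000017076 with a difference of 0.55 (SE 0.16), ENSGACG00000016157 with 0.46 (SE 0.15) and ENSGACG00000018137 with 0.25 (SE 0.10), each at an edgeR adjusted p of 1.00. With the male as a replicate block 7 members had an unadjusted p under 0.05, 5 with the higher effect in the telencephalon and 2 with the lower, and the percentage over all genes was 2.68%. The smallest adjusted p among these members was 0.190 (edgeR), for ENSGACG00000016157, with a difference of 0.45 (SE 0.08). ENSGACG00000016157 and ENSGACG00000017076 had been singled out by their telencephalon effect, so their difference is not independent evidence.

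The effect of the female, the mean of courtship and tradeoff males minus that of control and predator males, moved none of the members past the threshold in the telencephalon (0% of all genes called by edgeR). DESeq2 and voom also called 0 members. At an unadjusted p under 0.05 there was 1 member, ENSGACG00000004357, against 3.39% of all genes, 1.82% higher and 1.57% lower. It had medians of 33.9 CPM in control, 26.9 in courtship, 31.7 in predator and 30.2 in tradeoff males and a log2 fold change of -0.19 (SE 0.09, edgeR adjusted p = 1.00). Second among those estimated lower was ENSGACG00000001455 at -0.08 (SE 0.05), and the highest estimates by p were ENSGACG00000016774 at 0.17 (SE 0.11) and ENSGACG00000006671 at 0.09 (SE 0.06). The 8 leading members had estimates from -0.02 to 0.11, with 0.11 (SE 0.12) for ENSGACG00000017076 and 0.07 (SE 0.10) for ENSGACG00000016157, each within its standard error of 0. In the diencephalon 0 members passed by edgeR, DESeq2 or voom (0% of all genes by edgeR), and 4 had an unadjusted p under 0.05, 2 in each direction, against 5.96% of all genes, 2.64% higher and 3.31% lower.

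The departure from additivity asked whether males with both stimuli differed from the sum of both single responses. In the telencephalon 0 members and 0% of all genes passed an adjusted p of 0.05 by edgeR, voom called 0 members and DESeq2 called 1 member among 28 genes. At an unadjusted p under 0.05 there were 10 members, all with a negative departure, against 6.79% of all genes in that direction and 8.52% in the other, 15.3% in all. ENSGACG00000010509 had the smallest p, with medians of 65.5 CPM in control, 66.9 in courtship, 71.2 in predator and 60.1 in tradeoff males and a departure of -0.38 (SE 0.10, edgeR adjusted p = 0.202). ENSGACG00000002727 came next, with medians of 60.8, 62.3, 65.6 and 61.3 CPM and a departure of -0.21 (SE 0.07, edgeR adjusted p = 0.209). In both genes the tradeoff males overlapped the other groups. Among members with a positive departure, ENSGACG00000017057 had 0.13 (SE 0.12) and ENSGACG00000004357 had 0.18 (SE 0.18). The leading members were not among the 10.

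The 48 members with a negative departure outnumbered the 12 with a positive one, whereas 51.7% of all genes had a positive one. The median was -0.11, against 0.01 over all genes. A measure of how far a library resembled each region also differed between the groups, and its part in this result was not tested beyond its use as a covariate. This regional index subtracts the mean log2-CPM of 500 diencephalon-high genes from that of 500 telencephalon-high genes, so that a higher value is more telencephalon-like. Telencephalon libraries averaged 1.88 ± 0.68 (SD, n = 7) for control males and 2.22 ± 0.25 (SD, n = 8) for courtship males. Predator males averaged 2.37 ± 0.14 (SD, n = 7) and males of the tradeoff 1.92 ± 0.26 (SD, n = 8). Control males 30 and 12 had the lowest telencephalon values, 0.61 and 1.25. With the index as a covariate, 2 members instead of 10 had an unadjusted p under 0.05 for the departure, and the median of the 60 was 0.01. The percentage over all genes fell likewise, from 15.3% to 3.42%. With both directions pooled, the members' counts lay near those of all genes in both fits. By direction they did not in the fit without the index. There all 10 members were negative, against 6.79% of all genes negative and 8.52% positive. Members were chosen to vary together in these same libraries, so neither the 10 nor the 48 are separate observations. Without control males 30 and 12 there were 5 members, all negative, against 6.90% of all genes in either direction.

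**Figure D5:**
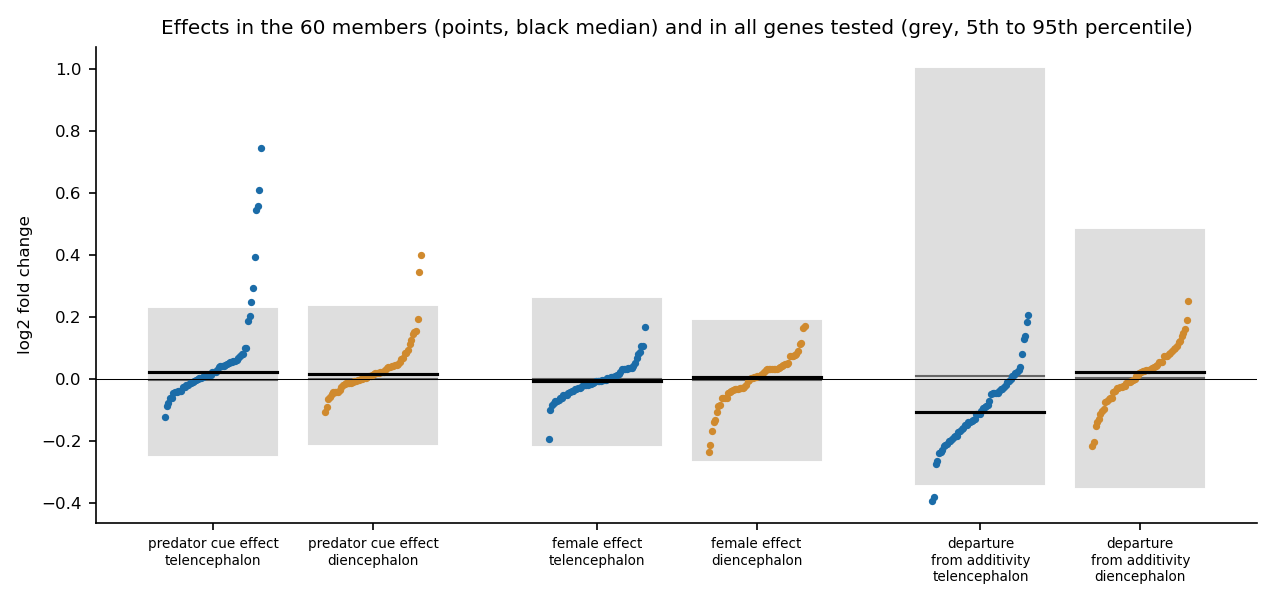
Log2 fold changes of the 60 members (points, with a black bar at their median) for the predator cue, the female and the departure from additivity in both regions, beside the 5th to 95th percentile and the median of all genes tested (grey). The cue estimates of a few members in the telencephalon reach 0.75, above the grey band that ends at 0.23, and the median of the members departs from the median of all genes mainly for the departure from additivity in the telencephalon, at -0.11.

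In the diencephalon no member departed from additivity at an adjusted p of 0.05 by edgeR, DESeq2 or voom (0% of all genes by edgeR). At an unadjusted p under 0.05 edgeR gave 0 members against 2.84% of all genes (1.58% higher and 1.26% lower), and DESeq2 and voom gave 1 each, against 3.01% and 3.40% of all genes. The median departure of the members there was 0.02.

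The regional index also went with the co-variation itself. Its telencephalon residuals correlated with those of 48 of the 60 members above 0 and with 15 of them above 0.5, against 44.8% and 5.77% of the candidates. Among the leading members r was 0.619 for ENSGACG00000018137, 0.599 for ENSGACG00000003192, 0.586 for ENSGACG00000017076 and 0.522 for ENSGACG00000007218. It was 0.353 for ENSGACG00000016157, 0.171 for ENSGACG00000005902 and 0.0798 for ENSGACG00000014266. The leading members thus differed widely in how they went with the index. Of the 500 telencephalon-high genes of the index, 9 were members, and the reference gene was another. The number of candidates among them was not counted. Members were chosen by the same telencephalon residuals and by a gene of the index. Their difference from the candidates is therefore not independent of the choice and is given as a description.

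For the reference gene the relation to the index had r = 0.309 (permutation p = 0.101) and Spearman rho = 0.298 (permutation p = 0.107) over 30 males. That r lay near the members' median r to the index of 0.303, against -0.042 for the candidates. Without the 2 males farthest from the median index r was 0.282. With the log2 library total r was 0.263 and rho 0.238 (permutation p = 0.160 and 0.203), and r was 0.0514 without the 2 farthest males, so that relation rested on them. All 4 permutation p-values were 0.203 after adjustment. When the index was removed from the residuals before the choice, 32 of the 60 members and 7 of the first 8 were chosen again. Without control males 30 and 12 it was 36 of 60 and 7 of 8.

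The cue effect of both members that rose changed little with the index as a covariate. It was 0.53 (SE 0.10, edgeR adjusted p = 0.0226) for ENSGACG00000016157 and 0.72 (SE 0.10, edgeR adjusted p = 0.000324) for ENSGACG00000017076. As without the index, 2 members were called and 10 had an unadjusted p under 0.05. Of all genes, 8 were called and 4.16% had an unadjusted p under 0.05, against 7 and 3.57% without the index.

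The telencephalon library of predator male 42 stood apart from all others, with a regional index of -2.002, below all diencephalon libraries (-1.28 to -0.93). It held 4.03 CPM of the reference gene, 27.1 CPM of ENSGACG00000016157 and 0.878 CPM of ENSGACG00000017076. There 41 of the 60 members were below the lowest of the other 30 telencephalon libraries and 2 above the highest. In the diencephalon library of the same male 4 members were below and 1 above. The percentage of candidates or of all genes outside these ranges was not counted. These counts are therefore not shown to be particular to the members. With male 42 included, 0 members passed the adjusted threshold for the cue in the telencephalon and 7 had an unadjusted p under 0.05 (edgeR). Over all 18714 genes, 0 passed the adjusted threshold and 3.25% had an unadjusted p under 0.05. Estimates of the log2 fold change were then 0.46 (SE 0.17, edgeR adjusted p = 0.998) for ENSGACG00000016157 and 0.65 (SE 0.23, edgeR adjusted p = 0.998) for ENSGACG00000017076. The choice of members also turned on this library: with it, the last of the 60 genes had r = 0.903 and 8 of the members were chosen again.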

How the data were processed

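RNA was sequenced from the diencephalon and telencephalon of 31 males (62 libraries). The deposited values are raw counts per gene model, and the authors used STAR and HTSeq, per the submitters' processing notes. Versions, genome build, annotation and strand setting were not given in the sources used, so overlapping antisense genes cannot be assumed to be separated. Of the tally in each library, 42.3% to 48.0% fell in gene models, and the rest was assigned to no gene. Reads aligned to several places, 4.66% to 14.6% of the tally in each library, were part of that rest, so genes with close copies are uncertain.

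CPM were computed from library totals over all gene models. Each region was fitted alone, with 30 males in 4 groups, using edgeR 4.0.16 in R 4.3.3. It used filterByExpr (minimum count 10, minimum total 15), TMM scaling and robust glmQLFit with glmQLFTest. All 60 members passed the filter. Calls were made at 0.05 after Benjamini-Hochberg adjustment over every gene in the fit. The cue difference between regions came from 1 fit of 8 groups without the pairing by male, and the male as a replicate block was an alternative. Alternatives were relative log expression scaling, no filter, limma 3.58.1 (voom, weighting samples by quality), DESeq2 1.42.0, 1 fit of both regions, the regional index as covariate (prior count 2, index genes above a mean log2-CPM of 3), and other sets of males. Permutation p-values of correlations used 100000 resamples and were two-sided. The fits and the choice of members were tested on simulated data.

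The numbers in the titles mark males, so both libraries of a number come from the same animal. Residuals of 13800 genes correlated between the regions at a mean of 0.410 within males (0.00775 to 0.650), against -0.0139 between males. In 27 of the 30 males the telencephalon correlated best with the diencephalon of the same male. In the others it correlated better with that of another male.

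The members, tests and lists were chosen with earlier results of these data known. Male 42 was left out because the rule for the members does so. Genes are named by rule: the reference gene, the first 8 by r, the genes on both sides of the limit, the 2 members with the smallest p in each direction of each telencephalon effect, and the extremes of level, region ratio, residual SD and diencephalon r. Genes outside this rule are marked in the text as named after their values were seen.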

Additional observations from a re-analysis of the deposited data

Results flagged for a closer look

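In 72 groups of libraries (the reference gene and the 8 members with the highest r, by treatment and region) 9 had a male that stood far from the others of its group. Chance flags about 1 in 20 groups where groups are independent and levels are normally distributed. These groups share males, and their genes were chosen to vary together, so the 9 cannot be set against that rate. Predator male 33 had the highest telencephalon level of its group for ENSGACG00000018137 (328 CPM, next 282) and for ENSGACG00000014266 (202 CPM, next 183), and the highest diencephalon level of ENSGACG00000018137 (133 CPM, next 115). Control male 26 had the lowest diencephalon level of ENSGACG00000017076 (6.37 CPM, next 9.06) and the lowest telencephalon level of ENSGACG00000005843 (29.2 CPM, next 34.2). In the diencephalon, ENSGACG00000016157 had 149.8 CPM in control male 12 (next 105) and 58.6 CPM in tradeoff male 6 (next 99.2). Courtship male 18 had 84.2 CPM of ENSGACG00000007218 in the diencephalon (next 74.6), and courtship male 32 had 10.7 CPM of ENSGACG00000005902 in the telencephalon (next 6.83).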

How the results depend on the processing

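Of 174 comparisons of a count or median of the members with its value under another setting, 154 stayed within 1.5 times or 1 SD between males. That SD was 0.10 in the telencephalon and 0.06 in the diencephalon, wider than most of the medians. Medians that changed sign could stay within it, as for the female in the telencephalon (-0.007, and 0.02 with male 42). Counts of 0 under both settings also stayed within the limit, so the tally does not measure stability. For the predator cue in the telencephalon, members past the adjusted threshold were 2 (7 of all genes). They were 3 by DESeq2 (15 of all genes), 0 with male 42 included (0) and 1 without control males 30 and 12 (5). For the female in the telencephalon, 1 fit of both regions gave 0 members at an unadjusted p under 0.05 (4.51% of all genes, against 3.39%). For the departure from additivity in the telencephalon, members at an unadjusted p under 0.05 were 10, but 2 with male 42, 5 without control males 30 and 12 and 2 with the regional index (4.87%, 6.90% and 3.42% of all genes, against 15.3%), where the median was 0.0068, and 1 fit of both regions and DESeq2 each called 1 member, among 215 and 28 of all genes, where the fit of that region alone called 0 genes. For the cue in the diencephalon, members at an unadjusted p under 0.05 were 5 (3.83% of all genes). They were 3 without control males 30 and 12 and 2 with the index (4.30% and 4.26% of all genes). For the female in the diencephalon they were 4, but 2 without those males (4.45% of all genes, against 5.96%). For the departure in the diencephalon they were 0 (2.84% of all genes). There was 1 with male 42, by voom and by DESeq2 (3.02%, 3.40% and 3.01%). For the difference of the cue effect between regions they were 3 (1.25% of all genes). There was 1 with male 42 (1.32%). With the male as a replicate block there were 7 (2.68%), which changed no call at the adjusted threshold. Members chosen again numbered 54 with TMM-scaled CPM, 43 with Spearman correlation, 58 with log2(CPM + 2), 32 with the index removed, 36 without control males 30 and 12 and 8 with male 42. The causes of these changes were not tested. Among named genes, small cue estimates changed sign. With male 42 these were ENSGACG00000014266 (-0.0028), ENSGACG00000016774 (0.0017) and ENSGACG00000006329 (-0.057) in the telencephalon, and ENSGACG00000016079 (0.0044) and ENSGACG00000006329 (-0.011) in the diencephalon. Without control males 30 and 12 they were ENSGACG00000006329 (-0.024) and ENSGACG00000002727 (-0.00014) in the telencephalon and ENSGACG00000006329 (-0.0060) in the diencephalon. With the index it was ENSGACG00000007648 (-0.039) in the diencephalon.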
